A study of Danio rerio with 2 samples.

Results

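The keratins and the desmosome genes make up much of the mechanical scaffold of the skin. In a table of 23809 genes, 28 were taken by their symbols: 17 keratins (symbols that start with krt and a digit, with krtt or with cyt1) and 11 of 15 named desmosome genes. The other 4 names (dspb, pkp1a, pkp3b and dsg2) have no row under those symbols. The table compares whole zebrafish at 3 days post fertilization by poly-A RNA sequencing: 1 library from embryos exposed to 20 µM of the triazole fungicide cyproconazole since 4 hours post fertilization, and 1 library from untreated controls. Each library came from 40 pooled embryos of the genotype SAGFF(LF)53A mitfab692/+. The treated and the control pool alike thus carried the SAGFF(LF)53A insertion and 1 mutant copy of mitfa, which black pigment cells need. Where the SAGFF(LF)53A insertion is active is not given in the sources used here.

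Keratins are intermediate filament proteins. A type I keratin pairs with a type II keratin, and the pairs assemble into filaments that span the cell. Desmosomes are spot-like junctions to which these filaments are anchored: desmosomal cadherins (desmogleins and desmocollins) bridge the gap between cells, plakoglobin and the plakophilins bind their tails, and desmoplakin links that plaque to keratin. Envoplakin and periplakin are related linker proteins of the plakin family. At this stage the zebrafish epidermis has an outer layer, the periderm, over a basal layer, and keratins are among its most abundant transcripts.

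The deposited level of a gene is its FPKM (fragments per kilobase of transcript at a common depth), a unit that allows levels of different genes to be set side by side. Whole reads per gene were worked out from the table's other columns and summed to 20726375 for the cyproconazole library and 18067935 for the control library. With 1 library per group there is no replicate check: each ratio compares these 2 libraries, and no p-value is given. Intervals in brackets are 95% exact binomial (Clopper-Pearson) intervals, which cover counting error only. In RNA of whole embryos, fewer cells of a type and less RNA per cell cannot be told apart. Of the 28 genes, 27 had at least 50 reads over both libraries and were compared, and krt93 did not, with 3 reads in the cyproconazole library and 1 read in the control library (ratio 2.61, 0.209 to 137).

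Keratin transcripts as a whole were at nearly the same level in both libraries. The 17 keratins summed to 12712 FPKM in the cyproconazole library and 11976 FPKM in the control library, a ratio of 1.06. They took 2.04% of reads (2.04 to 2.05) in the cyproconazole library and 1.94% (1.93 to 1.94) in the control library, a read ratio of 1.05 (1.05 to 1.06). The single gene krt4 set the direction by reads: without it, a choice made after its value was seen, the summed read ratio was 0.970 (0.963 to 0.977), and the FPKM ratio was 1.03. The 11 desmosome genes summed to 209.9 FPKM in the cyproconazole library and 204.0 FPKM in the control library, and their summed read ratio was 1.01 (0.994 to 1.03).

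Single genes spread around this level in both directions. On the log2(FPKM + 1) scale, which understates the change of low genes, 1 of 16 keratins compared was higher by 1.5-fold or more in the cyproconazole library and 0 were lower by that much, and 0 of 11 desmosome genes passed that fold in either direction. Over all 18621 genes compared, 1.58% were that much higher and 1.71% that much lower, or 3.29% in all, so 1 of 27 members is close to the background. By reads 1 keratin was past 1.5-fold on each side (krt94 higher, krt1-c5 lower), against 2.86% of all genes higher and 3.13% lower. The counting interval lay above 1 for 10 of the 27 members and below 1 for 9, against 15.8% and 14.5% of all genes. Members are deep, which narrows their intervals: among genes with at least 1000 reads, the shares were 22.7% above 1 and 21% below 1. Of the keratins at that depth, 5 of 14 had an interval above 1 and 6 below 1, and of the desmosome genes 4 of 8 above 1 and 1 below 1.

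**Figure D1:**
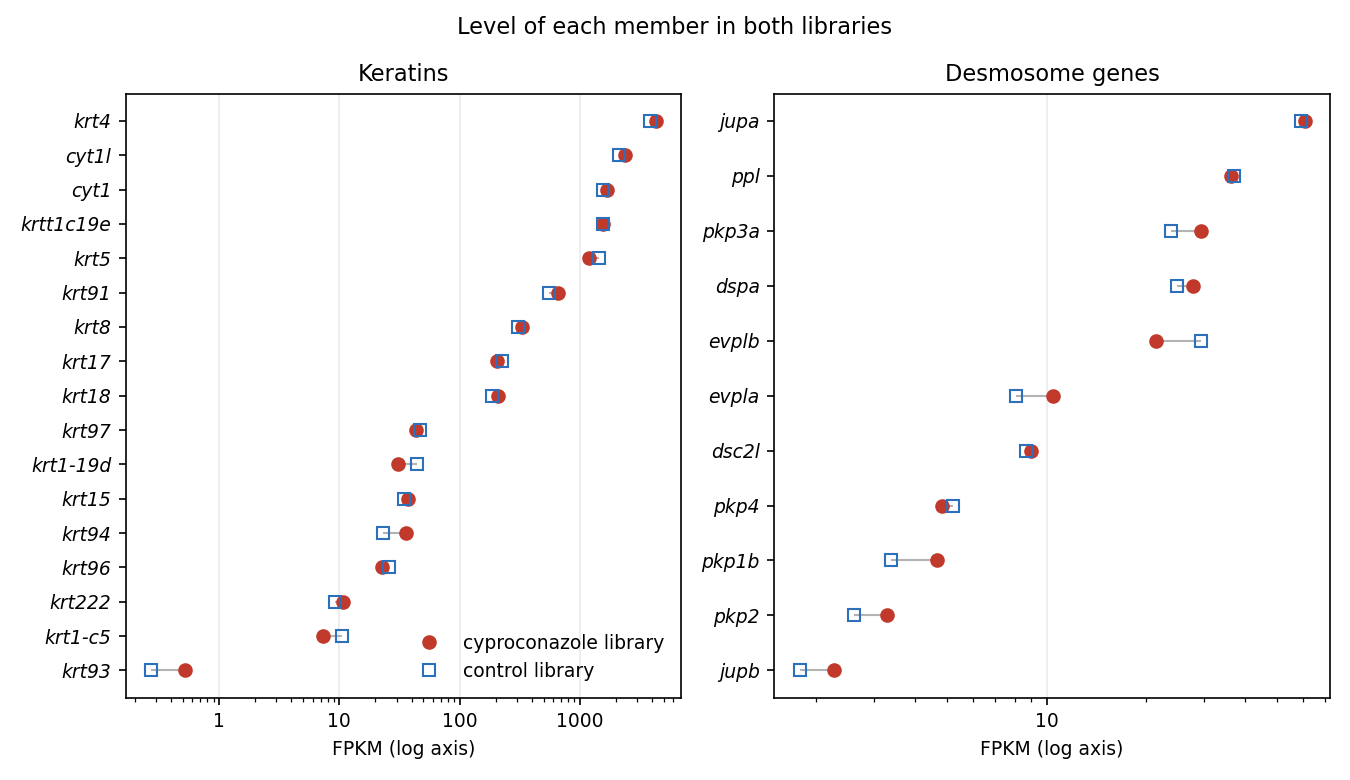
FPKM (log axis) of the 17 keratins (left) and the 11 desmosome genes (right) in the cyproconazole library (filled circles) and the control library (open squares), ordered by mean level. The keratins run from krt4 at 4308 and 3834 FPKM to krt93 at 0.518 and 0.273 FPKM, and the 2 symbols of a gene lie close together beside the spread between genes.

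The type II keratins krt4, krt5 and krt8 differed among themselves. The most abundant keratin was krt4 (ENSDARG00000017624), a marker of the superficial layer of embryonic skin. It had 4308 FPKM in the cyproconazole library and 3834 FPKM in the control library, a read ratio of 1.11 (1.11 to 1.12), and alone took 33.9% and 32.02% of keratin FPKM in the cyproconazole and the control library. By contrast krt5 (ENSDARG00000058371), also a keratin of the epidermis, was lower in the cyproconazole library: 1199 FPKM there and 1445 FPKM in the control library, a read ratio of 0.849 (0.837 to 0.861). As a result the level of krt4 was 3.59 times that of krt5 in the cyproconazole library and 2.65 times in the control library. The keratin of simple epithelia krt8 (ENSDARG00000058358) had 329.7 FPKM in the cyproconazole library and 309.1 FPKM in the control library, a read ratio of 1.06 (1.03 to 1.08). Summed, the 3 type II keratins had a read ratio of 1.07 (1.06 to 1.07), most of it krt4. The summed read ratio of the 9 type I keratins was on the other side of 1, at 0.978 (0.969 to 0.987). The 5 keratins whose type was not assigned are in neither sum, and theirs was 1.18 (1.16 to 1.21). Where the sums would lie with every keratin typed was not tested. By summed FPKM the ratios were 1.04 for type II and 1.07 for type I. The type I sum was 6115 FPKM in the cyproconazole library and 5739 FPKM in the control library. Of these, cyt1l held 2364 and 2107 FPKM and cyt1 held 1696 and 1549 FPKM. Both genes have few reads for their FPKM, so the type I ratio is uncertain by FPKM and by reads. Most type I reads came from krtt1c19e. It had 56402 of 90462 in the cyproconazole library and 50140 of 80398 in the control library.

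Of the keratins known to be type I, 9 were compared. Among the abundant ones, cyt1l, krtt1c19e and krt18 lay near a read ratio of 1. Lower by reads were cyt1, at 0.903 (0.879 to 0.928), and krt17, at 0.805 (0.745 to 0.869). The enveloping layer cytokeratin cyt1l (ENSDARG00000036832) had 2364 FPKM in the cyproconazole library and 2107 FPKM in the control library, a read ratio of 1.08 (1.06 to 1.11). The basal skin keratin krtt1c19e (ENSDARG00000090268) had 1553 FPKM in the cyproconazole library and 1571 FPKM in the control library, a read ratio of 0.978 (0.966 to 0.990). The partner of krt8 in simple epithelia, krt18 (krt18a.1 in RefSeq), had 210.8 FPKM in the cyproconazole library and 186.1 FPKM in the control library, and its read ratio of 1.03 (0.994 to 1.07) did not differ from 1 beyond counting error. Reads of krt8 made up 74.2% (73.7 to 74.8) of the reads of this pair in the cyproconazole library and 73.8% (73.2 to 74.4) in the control library, so the balance of these 2 genes did not differ beyond counting error. A further krt18 gene, zgc:77517 (krt18b in RefSeq), is not in this pair, and its read ratio was 1.43 (1.36 to 1.49).

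Lower in the cyproconazole library were 2 type I keratins of moderate level. For krt1-19d (ENSDARG00000023082) the level was 31.0 FPKM in the cyproconazole library and 44.4 FPKM in the control library, from 933 reads in the cyproconazole and 1197 reads in the control library, a read ratio of 0.678 (0.621 to 0.739). For krt1-c5 (ENSDARG00000026979) it was 7.27 FPKM in the cyproconazole library and 10.5 FPKM in the control library, a read ratio of 0.628 (0.536 to 0.735), the lowest of all members by reads. Their differences on the log2(FPKM + 1) scale, -0.50 and -0.48, do not reach 1.5-fold, and by reads krt1-c5 does. Next came krt17, with 204.1 FPKM in the cyproconazole library and 226.5 FPKM in the control library, a read ratio of 0.805 (0.745 to 0.869). At the upper end of the type I genes, krt222 had a read ratio of 1.11 (0.975 to 1.255) and krt15 1.08 (0.997 to 1.17), both with intervals that reach 1.

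The widest range was among the 5 keratins numbered in the nineties, whose type was not assigned here. Among the keratins with at least 50 reads, the highest ratio was that of krt94 (ENSDARG00000044975), with 35.9 FPKM in the cyproconazole library and 23.0 FPKM in the control library, from 1558 reads in the cyproconazole and 892 reads in the control library. Its read ratio was 1.52 (1.40 to 1.65), and by difference in log2(FPKM + 1), 0.62, it was number 250 from the top of all genes compared. Much more abundant, krt91 (ENSDARG00000036830) had 657.3 FPKM in the cyproconazole library and 552.8 FPKM in the control library, a read ratio of 1.19 (1.16 to 1.22). On the other side of 1 lay krt97, with 43.7 FPKM in the cyproconazole library and 47.3 FPKM in the control library (read ratio 0.810, 0.725 to 0.904), and krt96, with 22.7 FPKM in the cyproconazole library and 25.7 FPKM in the control library (0.745, 0.630 to 0.881). So 2 of these genes were higher and 2 lower in the cyproconazole library by reads, each beyond counting error. Over all genes the shares were 15.8% above 1 and 14.5% below 1, and 22.7% and 21% among genes with at least 1000 reads. By FPKM the ratios of krt97 and krt96 lay nearer 1, at 0.925 and 0.880. Both have few reads for their FPKM, so their values are uncertain.

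**Figure D2:**
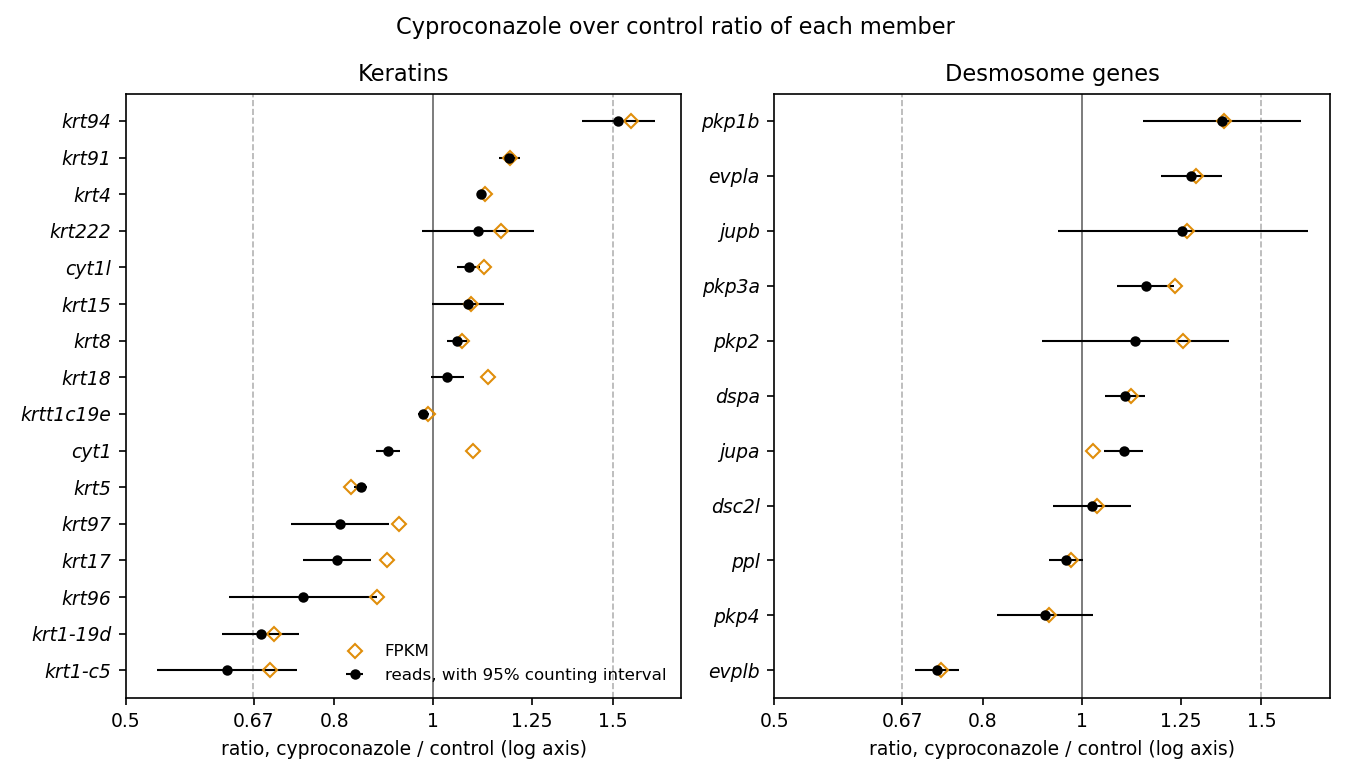
Ratio of the cyproconazole over the control library (log axis) for the 16 keratins and 11 desmosome genes with at least 50 reads, by reads (black, bars are 95% counting intervals) and by FPKM (open diamonds); dashed lines mark 1.5-fold. Keratins run from krt1-c5 at 0.628 to krt94 at 1.52 and desmosome genes from evplb at 0.722 to pkp1b at 1.37, and cyt1 is the only member with its 2 ratios on opposite sides of 1.

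Keratin genes lie in groups of neighbours, and ratios differed within each group, though some direct neighbours were alike. The interval of krt97 overlaps that of krt96, and the interval of krt8 overlaps that of krt18. In the order of RefSeq's assembly GRCz12tu, used here for gene names and order only, 16 members fall into 4 groups with at most 2 other genes between neighbours. The longest runs krt1-19d, krtt1c19e, cyt1l, cyt1, krt17, krt91 and the plakoglobin gene jupb. Its read ratios went from 0.678 for krt1-19d to 1.254 for jupb, 1.85 times apart, but the interval of jupb (0.948 to 1.67) spans 1. The highest keratin of this group was krt91, at 1.19, and the neighbours krt17 and krt91 lay on opposite sides of 1. In consequence krt91 held 92.7% (92.3 to 93.1) of the reads of this pair in the cyproconazole library and 89.6% (89.1 to 90.1) in the control library. By FPKM the level of krt91 was 3.22 times that of krt17 in the cyproconazole library and 2.44 times in the control library. Few reads were counted for the FPKM of krt17, so its share of the pair is uncertain. In the group krt222, krt97 and krt96 the ratios were 1.48 times apart, in that of krt94 and krt15 1.40 times, and in that of krt5, krt8 and krt18 1.24 times.

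**Figure D3:**
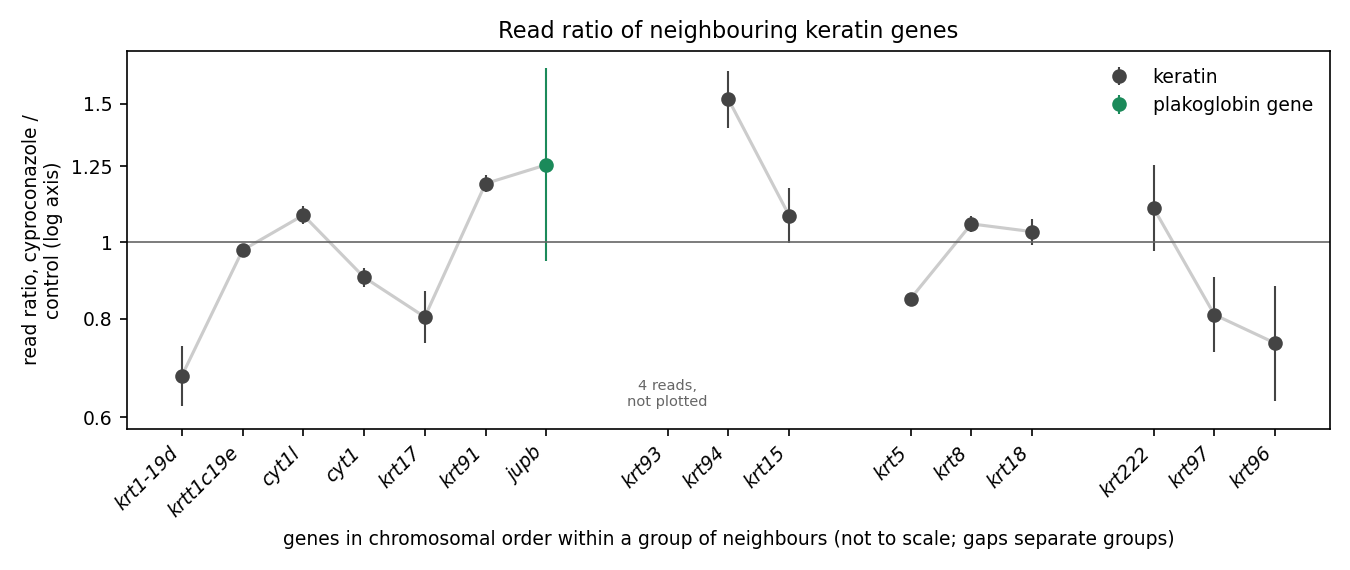
Read ratio of the cyproconazole over the control library (log axis, bars are 95% counting intervals) for keratin genes in chromosomal order within 4 groups of neighbours, with jupb in green. Values cross 1 within 3 of the groups, for example between krt17 at 0.805 and krt91 at 1.19.

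Further keratin and desmosome genes are in the table, 5 under clone names that RefSeq lists as synonyms and dsg2l under its own symbol; the symbols above did not select them, and they are given with their values already known. The gene zgc:77517 (krt18b in RefSeq), with 1 gene between it and krt4, had 152.8 FPKM in the cyproconazole library and 104.3 FPKM in the control library, a read ratio of 1.43 (1.36 to 1.49). Also si:ch211-133j6.3 (krt18a.2) had a read ratio of 0.886 (0.668 to 1.18) and zgc:110712 (krt99) 0.924 (0.647 to 1.32), neither off 1 beyond counting error, and zgc:171226 (krt98) had 12 reads in the cyproconazole library and 6 reads in the control library, too few to be compared. The second desmoplakin gene, wu:fi04e12 (dspb), was at 1.12 (1.07 to 1.18) by reads, and the desmoglein-like gene dsg2l 1.01 (0.830 to 1.24).

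Among the desmosome genes the plakins held the clearest contrast. The envoplakin paralogs lay on opposite sides of 1: evpla (ENSDARG00000019808) had 10.5 FPKM in the cyproconazole library and 8.10 FPKM in the control library, a read ratio of 1.28 (1.20 to 1.37). Its paralog evplb (ENSDARG00000103459) had 21.4 FPKM in the cyproconazole library and 29.4 FPKM in the control library, a read ratio of 0.722 (0.687 to 0.758), the lowest of the desmosome genes. Reads of evpla were 40.9% (39.5 to 42.2) of the pair's reads in the cyproconazole library and 28.0% (26.8 to 29.3) in the control library, and the pair's summed read ratio was 0.878 (0.844 to 0.914). Periplakin, their partner, encoded by ppl (ENSDARG00000101043), had 36.2 FPKM in the cyproconazole library and 37.1 FPKM in the control library, a read ratio of 0.965 (0.929 to 1.003) that reaches 1. Desmoplakin, from dspa (ENSDARG00000022309), had 27.7 FPKM in the cyproconazole library and 24.8 FPKM in the control library, a read ratio of 1.10 (1.05 to 1.15), close to the 1.12 of its paralog.

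The armadillo proteins of the plaque, plakoglobin and the plakophilins, had read ratios from 0.921 to 1.37. Of these 6 genes 5 were above 1 by reads, against 51.7% of all genes, and 0 passed 1.5-fold. An interval above 1 was found for 3, against 15.8% of all genes and 22.7% of genes with at least 1000 reads. The main plakoglobin gene jupa (ENSDARG00000070787), the most abundant of the desmosome genes, had 60.6 FPKM in the cyproconazole library and 59.1 FPKM in the control library, a read ratio of 1.10 (1.05 to 1.15). Its minor paralog jupb had 2.26 FPKM in the cyproconazole library and 1.78 FPKM in the control library, from 127 reads in the cyproconazole and 88 reads in the control library (1.254, 0.948 to 1.67), too few to detect a difference. Of the plakophilins, pkp3a had 29.5 FPKM in the cyproconazole library and 23.9 FPKM in the control library, a read ratio of 1.16 (1.08 to 1.23). The desmosome gene with the highest ratio was pkp1b (ENSDARG00000052705), a low gene with 4.65 FPKM in the cyproconazole library and 3.37 FPKM in the control library and a read ratio of 1.37 (1.15 to 1.64). For pkp2, a plakophilin also used in heart muscle, the ratio was 1.13 (0.914 to 1.39), and for pkp4, which in mammals also acts at junctions other than desmosomes, 0.921 (0.827 to 1.03). The one desmosomal cadherin among the members, dsc2l, had 8.95 FPKM in the cyproconazole library and 8.65 FPKM in the control library, a read ratio of 1.02 (0.937 to 1.12).

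Set against each other, keratins and desmosome genes did not part clearly. The median difference in log2(FPKM + 1) was 0.11 over the 16 keratins, with a range of -0.50 to 0.62, and 0.16 over the 11 desmosome genes, with a range of -0.44 to 0.37. Over all genes compared the median was 0.02, and the central 90% of genes lay between -0.37 and 0.39. Above 0 were 9 of 16 keratins and 8 of 11 desmosome genes, against 54.4% of all genes. Below 0 were 7 keratins and 3 desmosome genes, against 45.6% of all genes. By reads the median log2 ratio was 0.01 for keratins, with 8 above and 8 below a ratio of 1, and 0.14 for desmosome genes, with 8 above and 3 below, against a median of 0.01 and 48.3% of genes below 1 over all genes. The median of the keratins minus that of the desmosome genes was -0.05 by FPKM and -0.13 by reads on the log2 scale, much less than the range within either group. The order by FPKM was not stable: with 5 added to each FPKM in place of 1 the difference was 0.0018, without jupb the desmosome median was 0.10 (0.1005), below the keratin median (0.1068), and among members with at least 1000 reads the medians were 0.125 for keratins and 0.041 for desmosome genes. Type I keratins had a median of 0.12 by FPKM and -0.03 by reads, and type II keratins 0.09 and 0.08, so the sign for type I depended on the measure.

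FPKM and reads gave different ratios for a few members, no more often than over all genes, a background that was not matched for depth. For each gene the reads per unit of FPKM were set against the median of 45.9 over all genes compared; a low value means that the FPKM is high for the reads counted. The members cyt1l, krt17, cyt1 and krt96 had 5.18, 6.20, 6.54 and 11.9 reads per FPKM, and krt97 had 14.3. The first 4 of these, out of 27 members compared, lie within the lowest 5% of genes, a larger share than over all genes. The one member whose direction differed was cyt1 (ENSDARG00000092947), with 1696 FPKM in the cyproconazole library and 1549 FPKM in the control library but a read ratio of 0.903 (0.879 to 0.928). Of the 27 members compared, cyt1 and krt96 had an FPKM and a read ratio at least 0.2 apart on the log2 scale, against 9.11% of all genes, and cyt1 alone had them on opposite sides of 1, against 9.99%. Summed, cyt1 and cyt1l had a read ratio of 0.993 (0.974 to 1.01), with cyt1 at 45.7% (45.1 to 46.4) of the pair's reads in the cyproconazole library and 50.2% (49.6 to 50.9) in the control library. Whether these genes share reads with similar genes was not tested, and the values of the 5 with few reads per FPKM are uncertain.

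**Figure D4:**
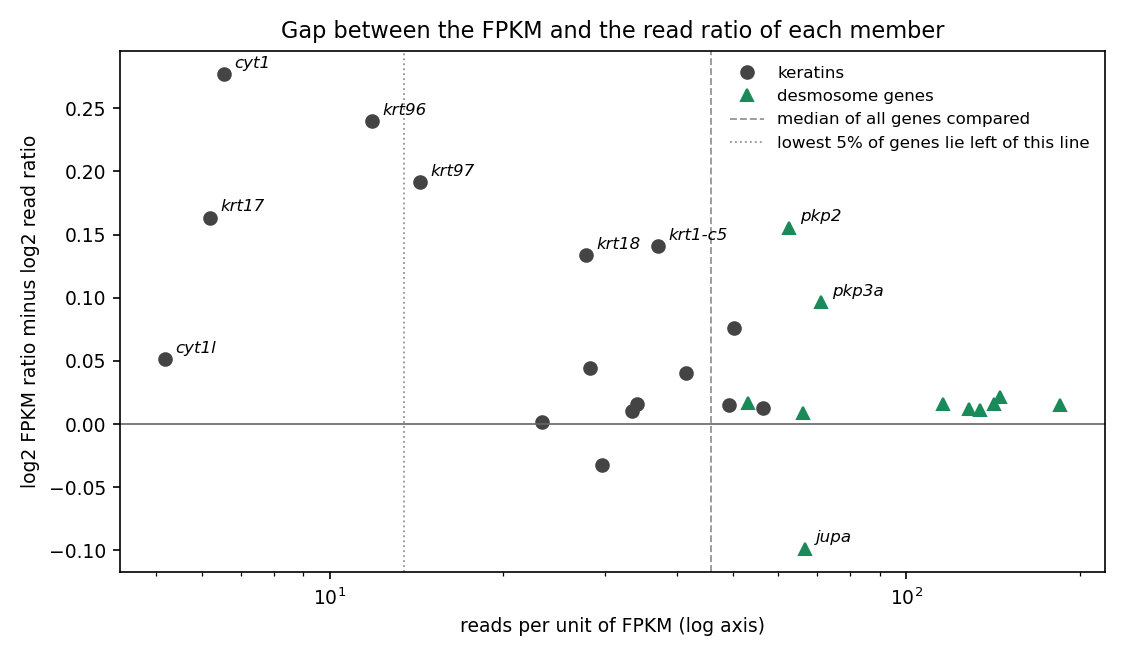
For each member compared, the log2 FPKM ratio minus the log2 read ratio, cyproconazole over control, against its reads per unit of FPKM (log axis), with the median (dashed) and the lowest 5% (dotted) of all genes compared. The keratins cyt1 (gap 0.28), krt96 (0.24) and krt97 (0.19) lie at the upper left, and most desmosome genes lie near 0 at the right.

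Other skin genes were counted from lists, which share some genes. The basal list shares col17a1a, col17a1b, itga6b, itgb4 and lamb4 with the hemidesmosome list. It also shares cdh1 with the adherens junction list and tp63 with the transcription factors. The superficial and the cornified envelope lists share anxa1b and anxa1c. Of 7 genes of the superficial skin list that are not members, 7 were above 0 on the log2(FPKM + 1) scale and 0 passed 1.5-fold, with a median of 0.21. Over all genes compared, 54.4% were above 0, the share to set beside this and the later list counts. Among the 7 genes, icn and icn2, which encode S100-type calcium-binding proteins, had 1133 and 422.4 FPKM in the cyproconazole library and 929.7 and 359.6 FPKM in the control library, and their read ratios were 1.18 (1.13 to 1.23) for icn and 1.16 (1.10 to 1.24) for icn2. The claudin gene cldne had a read ratio of 1.17 (1.10 to 1.252). By reads anxa1b was at 0.976 (0.925 to 1.03), and cldnf, anxa1c and agr2 also had intervals that span 1. Of 9 basal keratinocyte genes that are not members, 5 were above 0 and 4 below, with a median of 0.01. In that list the claudin gene cldni had 143.2 FPKM in the cyproconazole library and 106.7 FPKM in the control library (1.19, 1.14 to 1.24), tp63, the regulator of basal epidermal identity, was at 1.11 (1.02 to 1.20), and the hemidesmosomal collagen gene col17a1b was at 1.16 (1.04 to 1.30). The adhesion gene epcam had 167.5 FPKM in the cyproconazole library and 199.4 FPKM in the control library but a read ratio of 0.977 (0.930 to 1.03). The 6 markers of superficial skin listed to check the tissue are all members, so they give no separate check. By FPKM 3 of 6 were above 0, and by reads 2 of 6 were above 1. Of the 5 markers of basal skin, krtt1c19e is a member, and the other 4, of which 3 were above 0, had a median of 0.10.

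Of 16 epidermal transcription factors compared, 9 were above 0 and 7 below, and 1, foxq1a, passed 1.5-fold, at 11.3 FPKM in the cyproconazole library and 6.99 FPKM in the control library (1.60, 1.34 to 1.92). The grainyhead gene grhl3 had a read ratio of 0.764 (0.624 to 0.933) and znf750, a regulator of keratinocyte differentiation in mammals, 1.46 (1.08 to 1.97). Of 15 genes of the cornified envelope and its crosslinking, 13 were above 0 and 0 passed 1.5-fold, with a median of 0.13, and the annexin gene anxa2a had a read ratio of 1.31 (1.23 to 1.41), the lipoxygenase gene alox12 also 1.31 (1.20 to 1.42) and the calpain gene capn1b 1.251 (1.11 to 1.41). Of 9 adherens junction genes, 7 were above 0 with a median of 0.06, and the beta-catenin gene ctnnb2 was at 1.27 (1.20 to 1.34). In that list pvrl1a (nectin) and vcla (vinculin) had FPKM and reads on opposite sides of 1, at a read ratio of 0.937 (0.731 to 1.20) for pvrl1a and 1.07 (0.989 to 1.16) for vcla. In the list of the hemidesmosome and basement membrane the balance was the other way, with 11 of 16 genes below 0, a median of -0.16 and 0 genes past 1.5-fold. Here plecb, one of the genes for plectin, which ties keratin to the hemidesmosome, had 22.2 FPKM in the cyproconazole library and 30.2 FPKM in the control library (0.847, 0.821 to 0.874), and the laminin gene lama5 was at 0.749 (0.713 to 0.788) and the basement membrane gene frem2a 0.713 (0.647 to 0.785).

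Of 19 other intermediate filament genes, 11 were above 0, with a median of 0.06, and 1 passed 1.5-fold. This was vim, the vimentin of mesenchymal and glial cells, with 61.7 FPKM in the cyproconazole library and 38.2 FPKM in the control library (1.60, 1.504 to 1.71). The glial filament gene gfap had 179.4 FPKM in the cyproconazole library and 130.0 FPKM in the control library (1.37, 1.33 to 1.41), and the neural progenitor filament gene nes had a read ratio of 1.44 (1.27 to 1.64). Of 8 genes on keratin regulation and turnover, 3 were above 0 and 5 below by FPKM, with a median of -0.05, while by reads 5 were above 1 and 3 below, with a median log2 ratio of 0.09, and vim, on this list too, was the only one past 1.5-fold. The keratin-binding gene tchp had a read ratio of 1.41 (1.16 to 1.73), and plecb is on this list as well.

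Markers of some other cell types differed further than the members. All 6 markers of fin fold mesenchyme, which lies under the skin, were below 0, with a summed level of 414.6 FPKM in the cyproconazole library and 719.3 FPKM in the control library, and 2 were at least 1.5-fold lower. All 6 markers of cartilage were below 0, with 506.4 FPKM in the cyproconazole library and 1188 FPKM in the control library, and 5 were at least 1.5-fold lower. In each library most of the cartilage sum was col2a1a (366.4 FPKM in the cyproconazole and 664.1 FPKM in the control library). This gene is on the notochord list too, and not on the fin fold list. The part of the fin fold and cartilage markers in the member ratios was not tested. Ionocytes, another cell type of the skin, had 7 of 10 markers above 0 and summed to 231.7 FPKM in both libraries, with 0 past 1.5-fold by FPKM. By reads 1 marker, rhcgb, was at least 1.5-fold lower (0.625, 0.502 to 0.777). The counting interval lay above 1 for 4 of the 10 ionocyte markers and below 1 for 3, against 15.8% and 14.5% of all genes. Of the cell types outside the skin that use krt8, krt18 or desmosomes, the notochord markers had a median of 0.14 over 8 genes with col2a1a and entpd5a at least 1.5-fold lower, and 0.15 over the 6 that remain without the members krt8 and krt18. The gut markers had a median of -0.07 over 6 genes, with 1, vil1, at least 1.5-fold lower by FPKM and 0 by reads. The heart markers had a median of -0.08 over 6 genes, with 0 past 1.5-fold on the log2(FPKM + 1) scale and 1, nppa, higher by reads (1.56, 1.32 to 1.84). Markers of the olfactory and ear epithelium had a median of -0.21 over 4 genes and those of mucous cells -0.04 over 2 genes, with 0 past 1.5-fold in either.

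**Figure D5:**
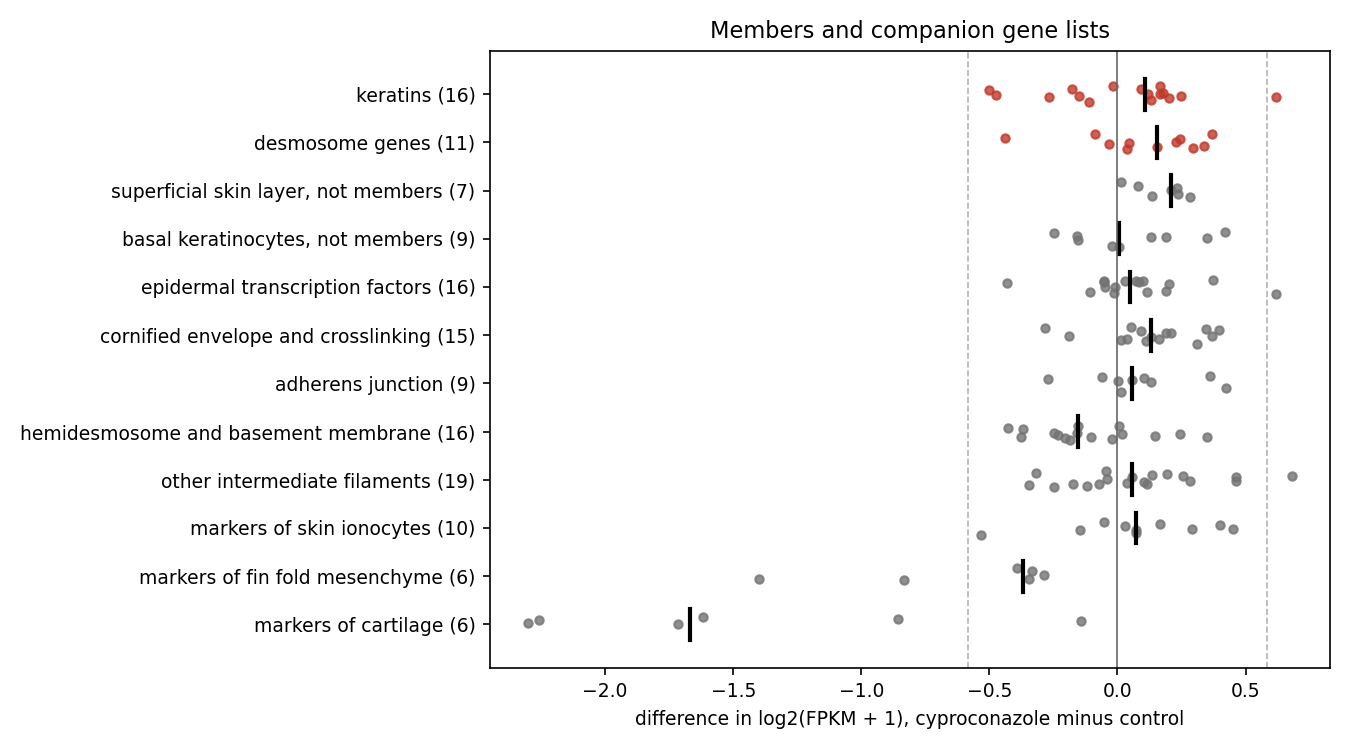
Difference in log2(FPKM + 1), cyproconazole minus control, for each gene compared (points), with the number of genes in brackets and black bars at the medians; dashed lines mark 1.5-fold. Keratins (median 0.11) and desmosome genes (median 0.16) lie around 0 with the other skin lists, while the markers of cartilage and of fin fold mesenchyme lie to the left, all below 0.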

How the data were processed

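Poly-A RNA of 2 pools of embryos was measured. The authors deposited 1 table with an FPKM value per gene and library, per the file headers, and with the mean over both libraries of counts scaled by size factors, a signal. Also deposited are the authors' log2 ratio, its standard error, a test score (the Wald statistic) and an unadjusted p-value, none of which served as a test here. The submitters' processing notes name GRCz10, Cufflinks 2.1.1, HTSeq 0.6.1, TopHat2 2.0.4, Picard 1.29 and SAMtools, with no role stated. For the annotation, strand setting and shared reads, the entry is: not given in the sources used here. Gene order came from RefSeq's GRCz12tu, no coordinates are given, and no sequence is shown.

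Whole reads were recovered for 23790 genes (99.9%), the 28 members included. Every mean count is a whole multiple of 1 step within 0.01 of it, with steps of control and treated reads in the ratio 68 to 59, and among the pairs of reads that give a mean, the one kept gave the deposited standard error within 1e-05 under a negative binomial model whose prior was centred on 0, provided that the runner-up was off by 10 times as much. For 7180 genes only 1 pair was possible, and it was kept without the standard error check. For abundant genes the choice rests on that model. The steps were tested on data simulated from the same model, which cannot check whether the deposited values follow it. TMM (a trimmed mean of log ratios) set the scale of read ratios (Python 3.11.15, NumPy 2.4.6, pandas 2.3.3, SciPy 1.17.1). Genes needed 50 reads over both libraries and an FPKM above 0 in each. The members and lists were chosen with earlier results of these data known. Named in full are the 8 keratins and 6 desmosome genes of highest level, members past 1.5-fold or with an interval bound past 1.25-fold, the 3 highest and 3 lowest of each class by reads, and the 3 genes of each of the 8 lists of skin and filament genes (not the cell type markers) with the greatest difference; other members complete the families, and tp63 and single cell type markers were named after their values were seen. List genes were matched by symbol or RefSeq synonym. Type I and type II were assigned by gene name or textbook knowledge. Alternatives were other added values, minimums, scalings, fold thresholds (1.25 and 2) and members left out.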

Additional observations from a re-analysis of the deposited data

How the results depend on the processing

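No paired analysis was possible because the cyproconazole and control groups hold 1 library each, and no library could be left out. Leaving out members of high protein identity was not run, since protein sequences were not used here. Reads in place of FPKM, which also drop the added 1, turned the sign of the type I median. The keratin median was 0.11 by FPKM and 0.0066, 0.011, 0.0043 and 0.0039 by reads under TMM, total-read, upper-quartile and size-factor scaling; the type I median, 0.12 by FPKM, was -0.032, -0.028, -0.035 and -0.035 under these, and the summed keratin ratio, 1.06 by FPKM, was 1.05, 1.06, 1.05 and 1.05. Among members, 1 of 27, cyt1, changed sign by reads under each scaling, and 0 under the other alternatives. Centring on the median gene gave a type II median of 0.072. The summed keratin ratio was 1.04 without members of low reads per FPKM and 1.03 without krt4, both chosen after the data were seen. The desmosome median was 0.26 without dspa, jupa, pkp2, pkp4 and dsc2l (dsg2, also set to be left out, has no row). The keratin minus desmosome median, -0.05, was between -0.13 and -0.036 under the alternatives run for it except with 5 added to each FPKM, where its sign turned (0.0018); without jupb the desmosome median was 0.10, just below that of the keratins. Of keratins, 0 were higher with 5 added or at 2-fold, 1 was lower by reads under each scaling, and 2 were lower at the lower fold threshold tried, where of desmosome genes 2 were higher and 1 lower. Against 295 genes higher and 318 lower in all, the counts were 596 and 620 with 0.1 added, 69 and 126 with 5 added, 172 higher with at least 200 reads, 533 and 583 by reads under TMM, 537 and 574 with total reads, 524 and 589 with the upper quartile or size factors, 1465 and 1220 at the lower threshold and 50 and 83 at 2-fold. Beyond the construction of the added values, thresholds and minimums, the cause was not tested. Depth limits jupb, pkp2 and krt222, whose intervals span 1.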
